A study of Rattus norvegicus with 20 samples.

Results

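The genes Nppa (ENSRNOG00000008176), Nppb (ENSRNOG00000008141), Myh6 (ENSRNOG00000025757) and Myh7 (ENSRNOG00000016983) encode the natriuretic peptides A and B and the alpha and beta myosin heavy chains of the heart. They were chosen by ID from a table of 24059 Ensembl gene IDs, in which none of the 4 was missing, and all 4 passed the filter on low counts that kept 14293 genes. The table carries IDs alone, and the names of the 4 genes came with the list of members.

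RNA from heart ventricles of 20 rats was sequenced, 1 library per rat and 5 rats per group, to compare diabetic with control hearts in the presence and absence of Vegfb, the gene of vascular endothelial growth factor B. All rats were male Sprague Dawley rats, 9 weeks old by their sample titles. WT control rats carried intact Vegfb and were not made diabetic. WT diabetic rats had received streptozotocin (STZ), a toxin of insulin-producing beta cells, at 55 mg/kg into a vein, and hearts were taken on day 4 of diabetes. VegfbKO control rats lacked Vegfb in all tissues through a beta-galactosidase (lacZ) gene, called beta-glucosidase in the series' own text, that was inserted with zinc-finger nucleases to disrupt it, and were not made diabetic. VegfbKO diabetic rats carried the same knockout and received the same STZ dose, with hearts again taken on day 4. Controls were littermates, and an injection of vehicle is not described for them. The row of Vegfb and marker genes of heart cell types were not analysed here, because no table used here pairs further IDs with names, so the genotype and tissue labels were not checked against them.

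Natriuretic peptides are hormones made by heart muscle cells, secreted when the wall of the heart is stretched, and they promote salt and water excretion and relax blood vessels. In the adult ventricle their transcripts are low in health and rise under load. Myosin heavy chains are the motor proteins of the thick filament: the alpha chain, from Myh6, splits ATP fast and predominates in the ventricle of the adult rat, while the beta chain, from Myh7, is slower and more economical and predominates before birth, and thyroid hormone is known to shift the balance between them.

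Total counts ranged from 7220469 to 26664479 per library. The lowest count of any of the 4 genes in any rat was 269 and the highest 737498. Counting error, taken as for plain counts, was thus at most 6.1% of a value. The error of estimating the counts is not part of this bound. Between the rats of a group, the SD was 10.4% of the mean or more. In the libraries of WT diabetic rat 2 and VegfbKO diabetic rat 1, 23.3% and 25.5% of all counts lay on a single ID, ENSRNOG00000065867, and their TMM factors were 0.729 and 0.693, against 0.935 to 1.17 in the other 18 libraries. Values are given as CPM, counts per 1000000 counts of the effective library size after TMM scaling. A gene was called in a comparison at an adjusted p under 0.05 (edgeR's quasi-likelihood test, Benjamini-Hochberg over 14293 genes) and an absolute log2 fold change above 0.27, and p-values measure the spread between rats.

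Myh6 was lower and Myh7 higher in most diabetic rats than in the controls of their genotype. Myh6 passed the test in WT and in VegfbKO rats and Myh7 in VegfbKO rats, while Myh7 in WT rats missed it with 1 control rat far from the rest, and passed by 3 other tests. The Myh7 to Myh6 ratio rose in both genotypes. Nppa and Nppb were not called in any comparison by this test, and 2 other tests called Nppa in WT rats.

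Myh6, the gene of the fast alpha chain, had 26030, 24914, 12712, 24934 and 26356 CPM in WT control rats 1 to 5. In WT diabetic rats 1 to 5 it had 3033, 3619, 13266, 4355 and 4651 CPM. Rat 3 was the low rat among the controls and the high rat among the diabetic rats, and through these 2 rats the groups overlapped, while the other 4 diabetic rats lay below every control. Mean Myh6 was 22989 ± 5781 CPM in WT controls and 5785 ± 4230 CPM in WT diabetic rats (SD, n = 5 each). The log2 fold change was -1.99 ± 0.42 (SE), a fall to 0.252 of the control level (95% confidence interval 0.137 to 0.463), with an adjusted p of 0.00353 by edgeR with Benjamini-Hochberg adjustment. Only 18 of the 14293 genes tested had a lower log2 fold change in this comparison. For 1 gene taken alone in whole ventricle, fewer cells of a type and less RNA per cell cannot be told apart.

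In VegfbKO control rats 1 to 5, Myh6 had 25914, 24104, 22131, 29278 and 26330 CPM. In VegfbKO diabetic rats 1 to 5 it had 10881, 7880, 3093, 7063 and 16186 CPM. Every diabetic rat lay below every control, with rat 5 the nearest to the controls and rat 3 as low as the lowest WT diabetic rats. Means were 25552 ± 2665 and 9021 ± 4875 CPM (SD, n = 5 each). This gave a log2 fold change of -1.5 ± 0.41 (SE), a fall to 0.353 of the control level (95% confidence interval 0.194 to 0.644; adjusted p = 0.0309, edgeR, Benjamini-Hochberg). This call was close to the threshold: the adjusted p was between 0.0531 and 0.0721 when VegfbKO control rat 1, 2, 4 or 5 or VegfbKO diabetic rat 2, 3 or 4 was left out, with log2 fold changes between -1.28 and -1.52.

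Myh7, the gene of the slow beta chain, had 2412, 2701, 14694, 3779 and 1510 CPM in WT control rats 1 to 5. In WT diabetic rats 1 to 5 it had 19684, 18546, 8703, 16287 and 16513 CPM. Control rat 3 had far more than any other control, and diabetic rat 3 had the least of its group and less than control rat 3, so the groups overlapped as they did for Myh6. Means were 5019 ± 5469 CPM in controls and 15946 ± 4290 CPM in diabetic rats (SD, n = 5 each). The log2 fold change of 1.67 ± 0.55 (SE) did not pass the test (adjusted p = 0.0557, edgeR, Benjamini-Hochberg), although 4 of 5 diabetic rats lay above every control. It was called by DESeq2 (1.67, adjusted p = 0.038), by edgeR's likelihood ratio test (1.67, adjusted p = 0.0175) and by limma's voom fit with quality weights (2.52, adjusted p = 0.00136), all with Benjamini-Hochberg adjustment. With the main test of edgeR, other scalings, the removal of ENSRNOG00000065867 and a filter on CPM gave adjusted p between 0.0512 and 0.0556. In 3 settings the adjusted p was further from the threshold. It was 0.0807 with no filter on low counts and 0.101 without the 2 libraries with a large share of counts on 1 ID. In a fit of only the 10 WT libraries it was 0.136. With the replicate number as a block, Myh7 was called, at 2.19 (adjusted p = 0.0137, edgeR, Benjamini-Hochberg). Without WT control rat 3 the log2 fold change was 2.62 with an adjusted p of 0.000561, without WT diabetic rat 3 it was 1.83 with 0.0403, and without VegfbKO control rat 3, which is in neither group but adds to the shared estimate of spread, it was 1.67 with 0.0445. Over the leave-one-out fits the adjusted p of edgeR ranged from 0.000561 to 0.124.

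In VegfbKO control rats 1 to 5, Myh7 had 2562, 1376, 6112, 2049 and 2944 CPM. In VegfbKO diabetic rats 1 to 5 it had 11803, 13565, 18364, 21590 and 8071 CPM. All diabetic rats lay above all controls, and control rat 3 was again the high rat of its group, though its Myh6 was only slightly below that of the others. Means were 3009 ± 1832 and 14678 ± 5351 CPM (SD, n = 5 each). The log2 fold change was 2.29 ± 0.57 (SE), a 4.88-fold rise (95% confidence interval 2.13 to 11.2), with an adjusted p of 0.0185 by edgeR with Benjamini-Hochberg adjustment, and 11 of the 14293 genes had a higher one. Without VegfbKO control rat 2 or rat 4, the log2 fold change was 2.10 or 2.18 and the adjusted p 0.0503 or 0.0521.

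**Figure D1:**
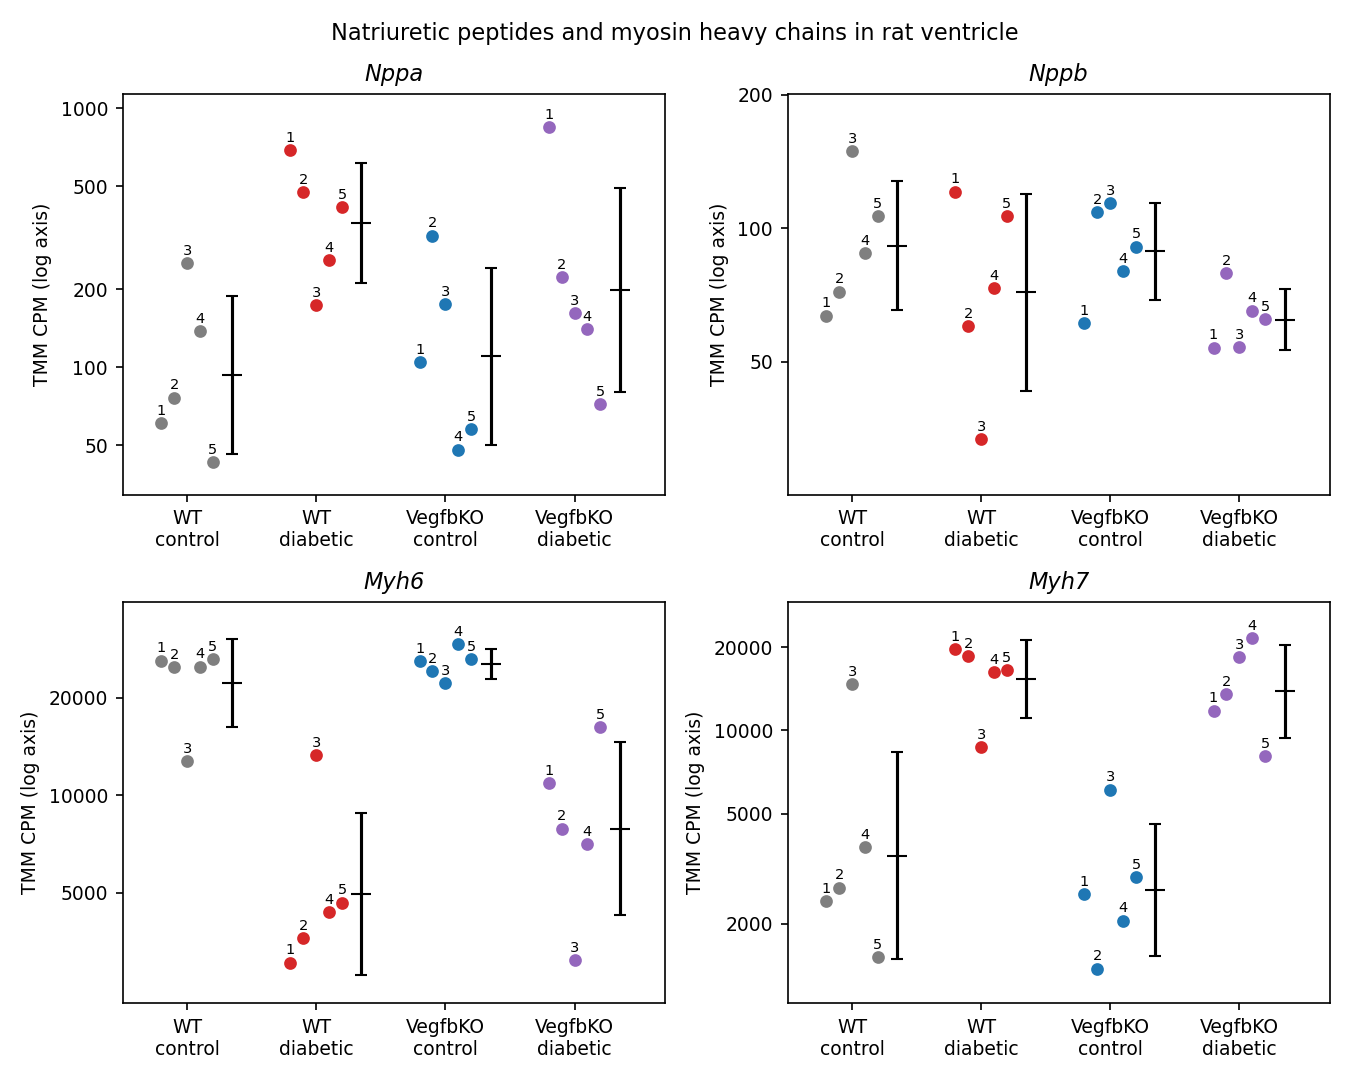
TMM CPM (log axis) of Nppa, Nppb, Myh6 and Myh7 in each of the 20 rats, numbered by replicate within the 4 groups, with the geometric mean and 1 SD of the log values as black bars. WT control rat 3 has the lowest Myh6 of the controls, 12712 CPM, and the highest Myh7, 14694 CPM.

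Set against all genes tested, 1876 of 14293 genes (13.1%) were called for diabetes in WT rats, 6.06% higher and 7.07% lower, and 1121 (7.84%) for diabetes in VegfbKO rats, 3.63% higher and 4.21% lower. Of the 4 genes, 1 was called in WT rats (Myh6, lower) and 2 in VegfbKO rats (Myh6, lower, and Myh7, higher). The median absolute log2 fold change over all genes tested was 0.18 in WT and 0.16 in VegfbKO rats. The VegfbKO count was 643 without VegfbKO diabetic rat 3, the rat with the lowest Myh6 of its group.

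**Figure D2:**
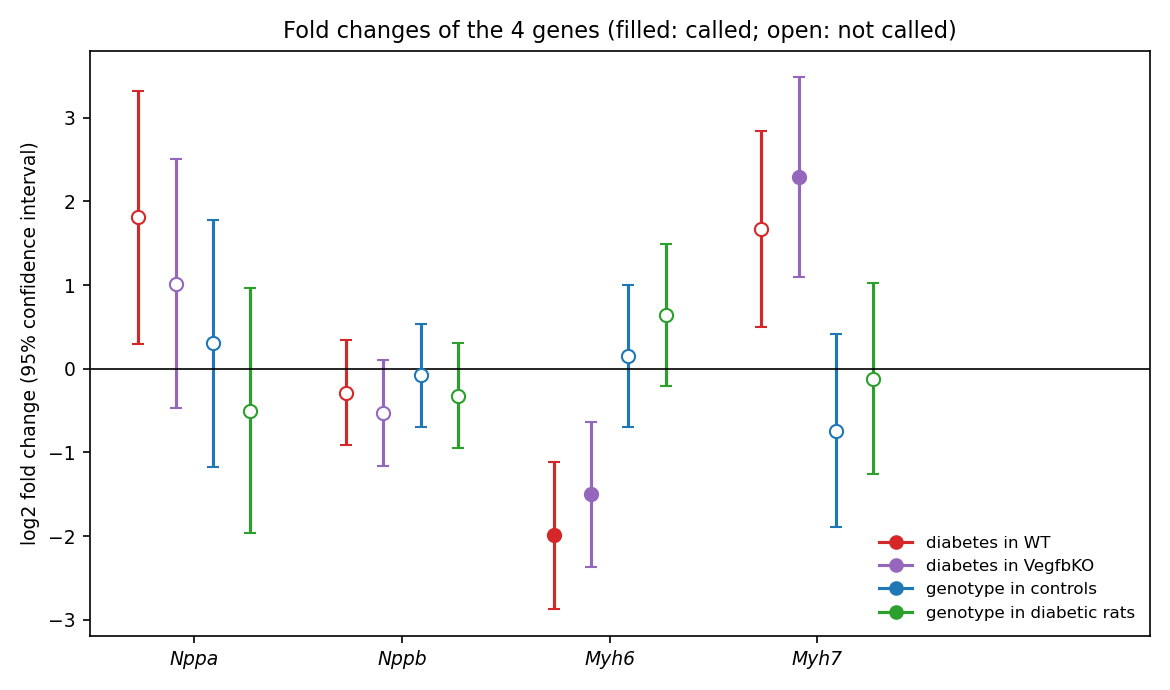
Log2 fold changes (y axis) of the 4 genes in the 4 comparisons, with 95% confidence intervals from edgeR's quasi-likelihood fit, filled where the gene was called and open where it was not. The 3 filled points are Myh6 for diabetes in WT at -1.99, Myh6 for diabetes in VegfbKO at -1.5 and Myh7 for diabetes in VegfbKO at 2.29.

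The Myh7 to Myh6 ratio was taken per rat from the counts of the 2 genes, so that it does not depend on scaling between libraries. It is a ratio of counts and not per length of transcript. Estimated counts may split reads between genes of similar sequence, and how alike these 2 paralogs are was not computed. Such splitting would make each value uncertain, and whether reads were split between them was not tested. The ratio was 0.0927, 0.108, 1.16, 0.152 and 0.0573 in WT control rats 1 to 5 and 6.49, 5.12, 0.656, 3.74 and 3.55 in WT diabetic rats 1 to 5. In VegfbKO control rats 1 to 5 it was 0.0989, 0.0571, 0.276, 0.0700 and 0.112, and in VegfbKO diabetic rats 1 to 5 it was 1.08, 1.72, 5.94, 3.06 and 0.499. Myh6 counts exceeded Myh7 counts in all controls but WT control rat 3, and Myh7 counts exceeded Myh6 counts in all diabetic rats but WT diabetic rat 3 and VegfbKO diabetic rat 5. The ratio of every diabetic rat was above that of every control other than WT control rat 3.

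The geometric mean of the ratio was 0.159 in WT controls, 3.11 in WT diabetic rats, 0.104 in VegfbKO controls and 1.76 in VegfbKO diabetic rats. Expressed as a share, Myh7 made up 18.1 ± 20.1% of the counts of both genes in WT controls, 73.4 ± 19.2% in WT diabetic rats, 10.5 ± 6.49% in VegfbKO controls and 61.9 ± 20.4% in VegfbKO diabetic rats (SD, n = 5 each). With diabetes the mean log2 ratio rose by 4.29 in WT rats, a 19.6-fold change (two-sided exact permutation test over all splits of the 10 rats into groups of 5, p = 0.0159, Benjamini-Hochberg adjusted over 4 comparisons p = 0.0317). In VegfbKO rats it rose by 4.08, a 16.9-fold change (p = 0.00794 by the same exact permutation test, the smallest it can give, adjusted p = 0.0317), and the groups did not overlap. Without WT control rat 3 the rise in WT rats was 5.01, and it remained under the threshold of 0.05 without any single rat, as did that in VegfbKO rats.

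The 2 WT rats numbered 3 differed from their groups in the balance of both myosins, and not in their sum. Added together, Myh6 and Myh7 had 28442, 27615, 27406, 28713 and 27866 CPM in WT control rats 1 to 5 and 22717, 22165, 21969, 20642 and 21164 CPM in WT diabetic rats 1 to 5. By this sum, control rat 3 lay next to the other controls and diabetic rat 3 within the diabetic rats, and the groups did not overlap, with means of 28008 ± 553 and 21731 ± 825 CPM (SD, n = 5 each). In VegfbKO control rats 1 to 5 the sum was 28476, 25480, 28243, 31327 and 29274 CPM, and in VegfbKO diabetic rats 1 to 5 it was 22684, 21445, 21457, 28653 and 24257 CPM. Here the groups overlapped through VegfbKO diabetic rat 4, which had the most Myh7 of all 20 rats. The sum was chosen after the values were seen and was not tested.

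A further description of the WT rats used the genes called for diabetes in VegfbKO rats. The calls compare VegfbKO rats only, but come from the fit of all 20 libraries, in which WT rats add to the estimate of spread. Over 1119 such genes, Myh6 and Myh7 left out, each WT rat's log2 CPM was set against the mean of the WT controls (of the other controls for a control), and the median was taken in the direction of the change in VegfbKO rats. WT control rats 1 to 5 had medians of 0.01, -0.02, 0.02, 0.01 and -0.01, and WT diabetic rats 1 to 5 had 0.45, 0.63, 0.38, 0.50 and 0.41. By these genes, control rat 3 lay with the controls and diabetic rat 3 at the low end of the diabetic rats. Whether the labels of these rats are right was not tested. With the 1110 genes called in a fit of the 10 VegfbKO libraries alone, the medians were 0.02 in control rat 3, against -0.03 to 0.02 in all controls, and 0.39 in diabetic rat 3, against 0.39 to 0.66 in all WT diabetic rats. This measure was also chosen after the values were seen.

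**Figure D3:**
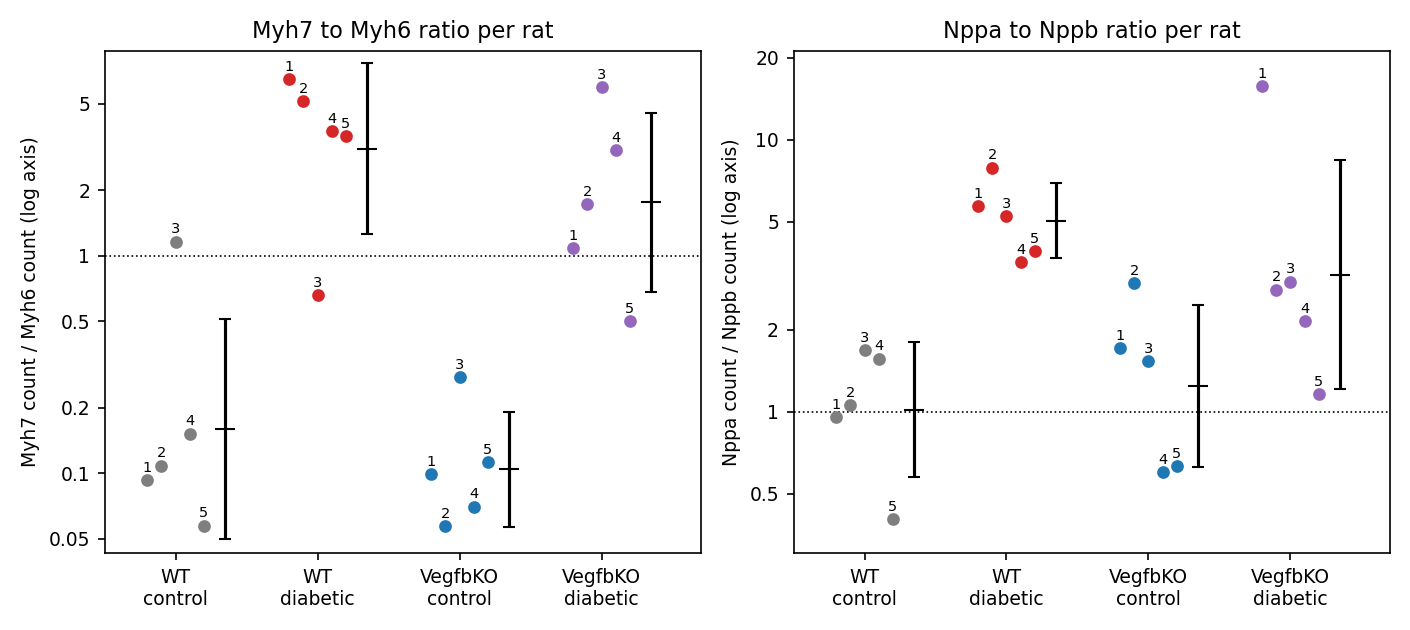
Ratio of Myh7 to Myh6 counts (left) and of Nppa to Nppb counts (right) per rat on log axes, by group, with the geometric mean and 1 SD of the log values as black bars and a dotted line at equal counts. WT control rat 3 at 1.16 and WT diabetic rat 3 at 0.656 cross the line on the left, as does VegfbKO diabetic rat 5 at 0.499, and VegfbKO diabetic rat 1 stands at 15.7 on the right.

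**Figure D4:**
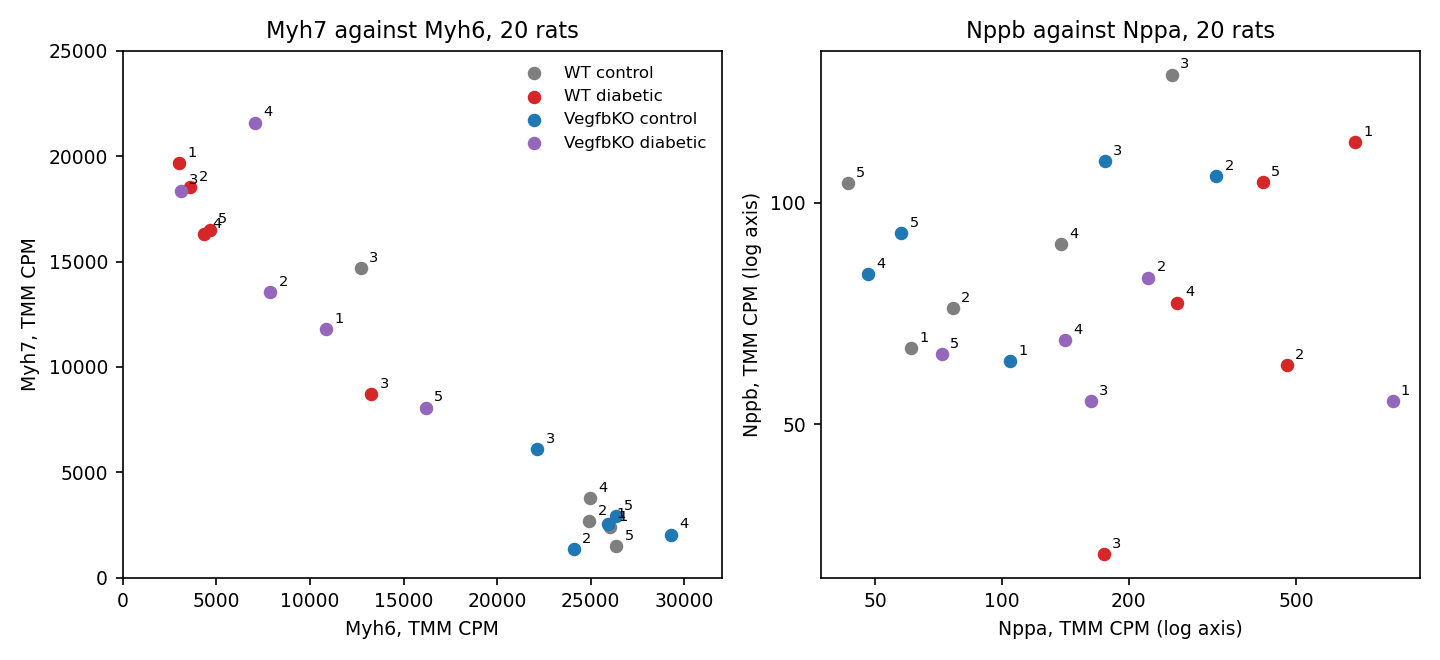
Myh7 against Myh6 (left, linear axes) and Nppb against Nppa (right, log axes) in TMM CPM, 1 point per rat, coloured by group and numbered by replicate. On the left the rats lie along a falling line, with 4 of 5 WT controls and all VegfbKO controls at its lower right end.

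By the RefSeq tables (build GRCr8, a newer build than the one named in the submitters' processing notes), Myh6 and Myh7 are neighbours on chromosome 15 with no other listed gene between them, and each holds the gene of a microRNA of the miR-208 family. Their mature 3p strands are shown, from RefSeq, because they lie within the 2 genes that moved in opposite directions. Neither was measured here. rno-miR-208a-3p lies at chr15:32395568-32395585 within Myh6 and rno-miR-208b-3p at chr15:32421648-32421665 within Myh7, both on the minus strand. Capitals mark the seed (bases 2 to 8), which the 2 share.
rno-miR-208a-3p: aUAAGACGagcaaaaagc
rno-miR-208b-3p: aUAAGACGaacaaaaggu

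The sequences before the starts of Nppa and Nppb are shown because these genes are also neighbours, on chromosome 5. Their log2 fold changes with diabetes had opposite signs in both genotypes, none of them called by the main test. The difference between the 2 genes was not tested, nor was any link to these sequences. All 4 genes matched the RefSeq promoter table by symbol, but the listed starts of Myh6 and Myh7 lie within the genes' own spans and their sequences are not shown. For Nppa the 250 bases before the start are given (GRCr8 chr5:163711934-163712183, plus strand). For Nppb the last 53 of the 250 bases lie within the span of the gene in the same tables, and the 197 bases before it are given (GRCr8 chr5:163699758-163699954, plus strand). Capitals mark matches to TGATAA or AGATAA (letters bound by GATA factors), CATTCC (the M-CAT element, bound by TEAD factors), each searched on both strands, and TATAAA, searched on the strand of the gene.
Nppa: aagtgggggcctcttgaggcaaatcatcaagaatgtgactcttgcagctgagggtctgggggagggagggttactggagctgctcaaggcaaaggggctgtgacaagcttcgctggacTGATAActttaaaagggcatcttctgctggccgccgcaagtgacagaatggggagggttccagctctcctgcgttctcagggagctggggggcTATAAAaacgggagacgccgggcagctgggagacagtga
Nppb: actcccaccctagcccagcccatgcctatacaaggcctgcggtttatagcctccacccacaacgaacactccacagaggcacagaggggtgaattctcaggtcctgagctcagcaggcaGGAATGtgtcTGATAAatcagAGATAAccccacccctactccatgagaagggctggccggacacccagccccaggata
The Nppa sequence had 1 GATA match, 132 bases before the start, and a TATAAA match at 39. The Nppb sequence had 2 GATA matches, at 121 and 110, and an M-CAT match on the other strand at 131, all counted from the listed start, 53 bases past the end of the printed sequence. No matches overlapped. Of 33469 promoters of 250 bases in the table, 16.9% held a GATA match, 12.1% an M-CAT match and 8.06% a TATAAA match, so that these matches are common and only describe the letters.

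Nppa, the gene of the A-type peptide, had 60.8, 76.3, 253, 138 and 43.0 CPM in WT control rats 1 to 5. In WT diabetic rats 1 to 5 it had 689, 474, 174, 259.9 and 416 CPM. The diabetic rats were the higher group, but control rat 3, the rat with high Myh7, exceeded diabetic rat 3, and the groups overlapped. Means were 114 ± 85.5 and 403 ± 200 CPM (SD, n = 5 each). The log2 fold change of 1.81 ± 0.71 (SE, 95% confidence interval 0.30 to 3.32) was not called (adjusted p = 0.107, edgeR, Benjamini-Hochberg). DESeq2 called it, at 1.82 and a Benjamini-Hochberg adjusted p of 0.0399, and limma's voom fit with quality weights also did, at 2.34 and 0.0238, and over all alternatives other than leaving out a single rat the adjusted p was between 0.0238 and 0.145.

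Nppa had 104.5, 322, 175, 48.1 and 57.6 CPM in VegfbKO control rats 1 to 5. In VegfbKO diabetic rats 1 to 5 it had 846, 222.5, 162, 141 and 72.0 CPM. Diabetic rat 1 alone was far above the rest, and the other 4 lay within the range of the controls. Means were 142 ± 113 and 289 ± 316 CPM (SD, n = 5 each). Nppa's log2 fold change was 1.01 ± 0.70 (SE; adjusted p = 0.444, edgeR, Benjamini-Hochberg), 0.09 without diabetic rat 1, whose library is the shallowest and 1 of the 2 with a large share of counts on 1 ID, and 1.57 without control rat 2, the highest control (adjusted p = 0.255).

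Nppb, the gene of the B-type peptide, had 63.4, 71.95, 149, 88.0 and 106 CPM in WT control rats 1 to 5. In WT diabetic rats 1 to 5 it had 121, 60.2, 33.35, 73.2 and 107 CPM. The groups overlapped widely, with control rat 3 the highest, diabetic rat 3 the lowest, and diabetic rats 2 and 3 below every control. Means were 95.8 ± 34.1 and 78.8 ± 35.3 CPM (SD, n = 5 each). The log2 fold change was -0.29 ± 0.30 (SE, 95% confidence interval -0.91 to 0.34; adjusted p = 0.584, edgeR, Benjamini-Hochberg).

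Nppb had 61.0, 109, 114, 80.1 and 90.9 CPM in VegfbKO control rats 1 to 5. In VegfbKO diabetic rats 1 to 5 it had 53.8, 79.1, 53.8, 65.2 and 62.3 CPM. The diabetic rats were close to each other and mostly below the controls, with an overlap through control rat 1 and diabetic rats 2, 4 and 5. Means were 90.9 ± 21.6 and 62.8 ± 10.4 CPM (SD, n = 5 each). Nppb's log2 fold change was -0.53 ± 0.30 (SE, 95% confidence interval -1.16 to 0.10; adjusted p = 0.331, edgeR, Benjamini-Hochberg).

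Set against each other within a rat, the 2 peptides separated the WT groups. The ratio of Nppa to Nppb counts, again not per length, was 0.959, 1.06, 1.69, 1.57 and 0.404 in WT control rats 1 to 5 and 5.70, 7.88, 5.23, 3.55 and 3.90 in WT diabetic rats 1 to 5. The WT groups did not overlap, and both rats numbered 3 lay with their own groups. In VegfbKO control rats 1 to 5 the ratio was 1.71, 2.97, 1.54, 0.601 and 0.634, and in VegfbKO diabetic rats 1 to 5 it was 15.7, 2.81, 3.01, 2.16 and 1.16. The VegfbKO groups overlapped, and apart from rat 1 all VegfbKO diabetic rats lay below all WT diabetic rats. Geometric means were 1.02, 5.04, 1.24 and 3.19 in WT control, WT diabetic, VegfbKO control and VegfbKO diabetic rats. The ratio was chosen after the values were seen, and these differences were not tested.

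Ordered by mean CPM, Myh6 ran from VegfbKO control over WT control and VegfbKO diabetic to WT diabetic rats, and Myh7 from WT diabetic over VegfbKO diabetic and WT control to VegfbKO control rats. Nppa ran from WT diabetic over VegfbKO diabetic and VegfbKO control to WT control rats, and Nppb from WT control over VegfbKO control and WT diabetic to VegfbKO diabetic rats. In each order the 2 control groups are neighbours, as are the 2 diabetic groups, and for none of the 4 genes did these neighbours differ beyond the spread of the rats. The step between the second and the third group joins groups that differ in both genotype and diabetes for Myh6, Myh7 and Nppb, and was not tested there, while for Nppa it is the comparison of VegfbKO diabetic with VegfbKO control rats, which did not pass.

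The genotype comparisons asked whether hearts without Vegfb differ from WT hearts in health and in diabetes. In all, 4 of 14293 genes (0.028%) were called in controls and 6 (0.042%) in diabetic rats, and none of the 4 genes was among them. In controls the log2 fold changes of VegfbKO against WT were 0.31 ± 0.70 for Nppa, -0.08 ± 0.29 for Nppb, 0.15 ± 0.40 for Myh6 and -0.74 ± 0.54 for Myh7 (SE). The adjusted p was 1 for each of them by edgeR with Benjamini-Hochberg adjustment. The value of Myh7 rested on WT control rat 3, without which it changed sign, to 0.21. Without that rat Nppb also changed sign, to 0.14, and Myh6 was 0.00. Nppa was 0.83 without WT control rat 3 and changed sign, to -0.25, without VegfbKO control rat 2. Without VegfbKO control rat 1, Nppb was 0.04. The 95% confidence interval of Myh7 reached from -1.89 to 0.41, which holds both a clear fall and a small rise.

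In diabetic rats the log2 fold changes of VegfbKO against WT were -0.50 ± 0.69 for Nppa, -0.32 ± 0.30 for Nppb, 0.64 ± 0.40 for Myh6 and -0.12 ± 0.54 for Myh7 (SE), with adjusted p between 0.672 and 0.981 (edgeR, Benjamini-Hochberg). The value of Nppa depended on VegfbKO diabetic rat 1: it was -1.43 without that rat (adjusted p = 0.603), -1.36 without that rat and WT diabetic rat 2, the 2 libraries with a large share of counts on 1 ID (adjusted p = 0.518), and -1.20 by limma's voom fit (adjusted p = 0.446), and no alternative called it. Myh6 was higher in VegfbKO diabetic rats 1, 2, 4 and 5 than in 4 of the 5 WT diabetic rats, while WT diabetic rat 3 and VegfbKO diabetic rat 3 went the other way. Without WT diabetic rat 3 its log2 fold change was 1.19 with an adjusted p of 0.0839. With WT control rat 3 also left out, a choice made after the values of both rats were seen, it was 1.20 with 0.0442, and over all alternatives the adjusted p of Myh6 ranged from 0.0442 to 0.927. The count of 6 genes was unstable as well: it was 181 without WT diabetic rat 3, and 2 or 3 without WT control rat 1, 4 or 5, WT diabetic rat 4 or 5, VegfbKO control rat 2, 4 or 5, or VegfbKO diabetic rat 1, 2, 4 or 5. DESeq2 called 67 genes, edgeR's likelihood ratio test 38 and limma's voom fit 28.

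Whether diabetes acted differently in the 2 genotypes was tested by the interaction. By edgeR 0 of 14293 genes (0%) were called, with 600 at an unadjusted p under 0.05, and DESeq2 and limma's voom fit also called 0. Without both WT rats numbered 3, left out after their values were seen, edgeR called 14 genes. For the 4 genes the interaction, as the log2 fold change in VegfbKO minus that in WT, was -0.80 ± 0.98 for Nppa, -0.24 ± 0.42 for Nppb, 0.49 ± 0.57 for Myh6 and 0.62 ± 0.76 for Myh7 (SE), with an adjusted p of 1 for each (edgeR, Benjamini-Hochberg). That of Nppa was -1.74 without VegfbKO diabetic rat 1 (adjusted p = 0.989) and -1.67 without that rat and WT diabetic rat 2 (adjusted p = 0.825), and was not called either way. That of Myh6 ranged from 0.16 to 1.05 and that of Nppb from -0.46 to -0.04 when 1 rat was left out, and that of Myh6 was 1.20 without both WT rats numbered 3 (adjusted p = 0.271). That of Myh7 changed sign, to -0.33 without WT control rat 3, to -0.48 without both WT rats numbered 3 and to -0.14 by limma's voom fit. For the Myh7 to Myh6 ratio it was -0.21 (exact permutation of the genotype within controls and within diabetic rats, 63504 regroupings, p = 0.867), from -0.93 to 0.24 when 1 rat was left out, and -1.49 without both WT rats numbered 3 (exact permutation p = 0.126), so that neither its size nor its direction was stable. The ratio did not differ by genotype beyond the spread of the rats in controls (-0.61, exact permutation p = 0.587, Benjamini-Hochberg adjusted p = 0.587) or in diabetic rats (-0.82, exact permutation p = 0.333, adjusted p = 0.444; -1.38 to -0.36 when 1 rat was left out, the lowest without WT diabetic rat 3, with an adjusted p of 0.138). That Myh7 was called in VegfbKO and not in WT rats does not by itself make the genotypes differ.

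**Figure D5:**
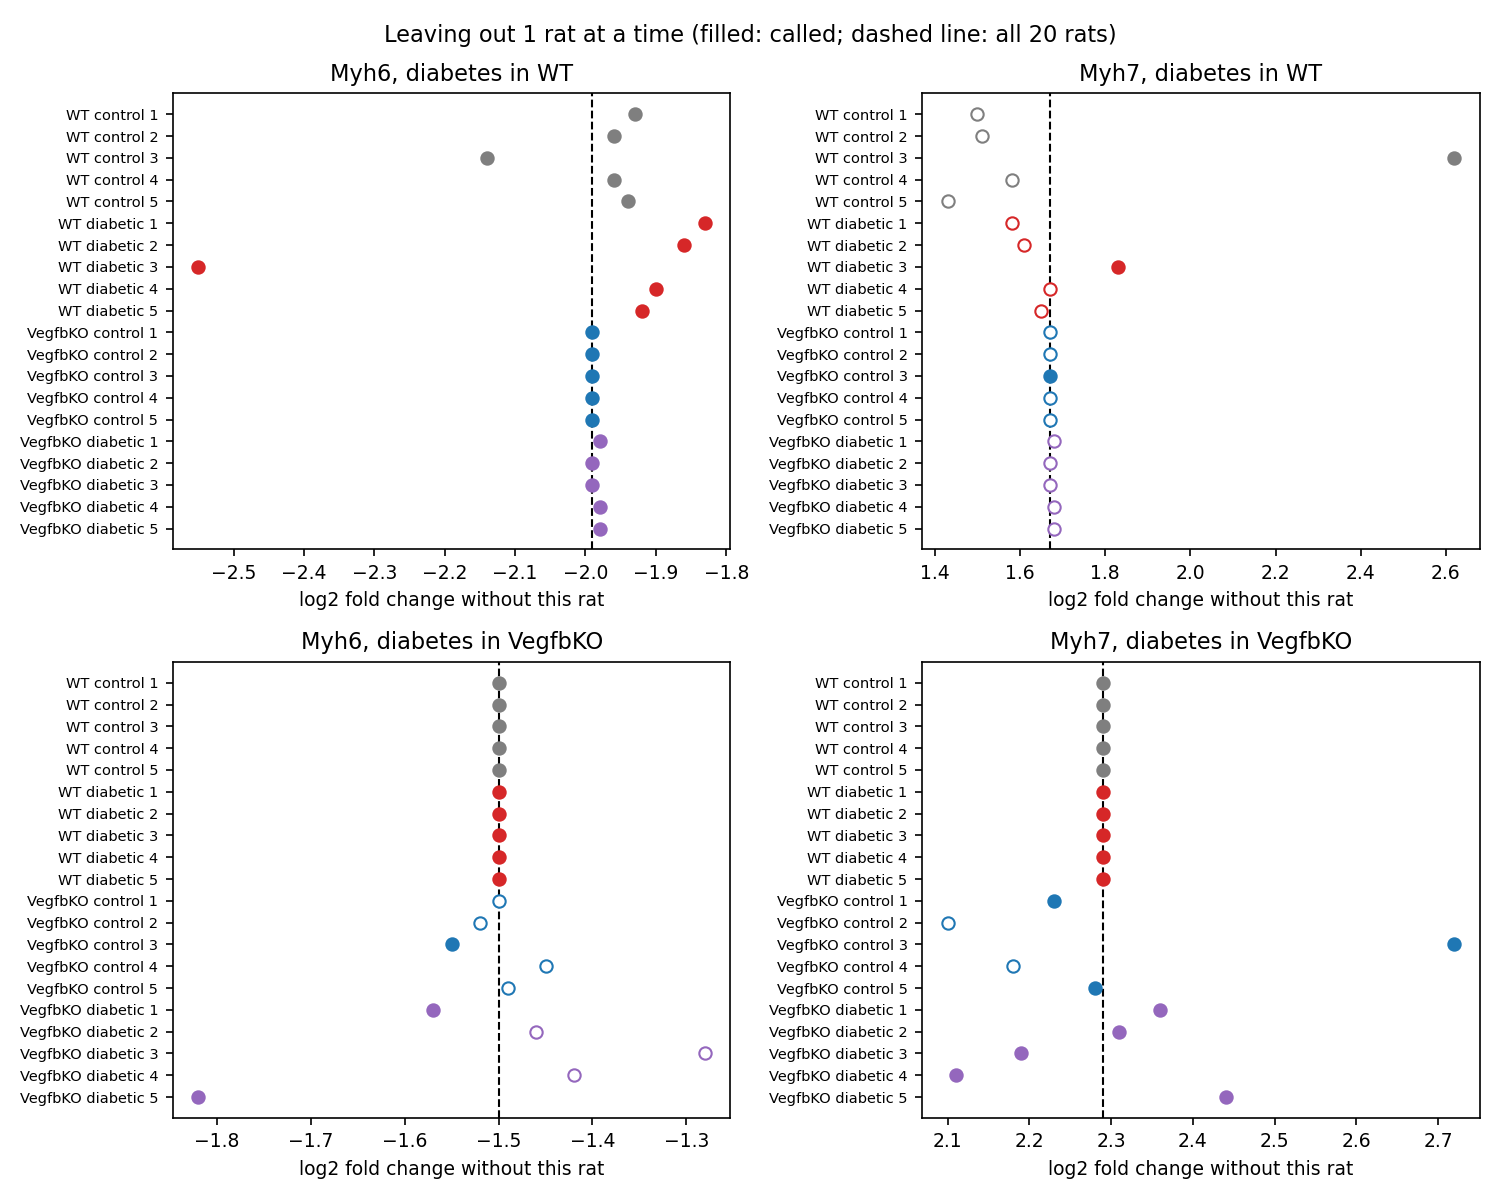
Log2 fold change of Myh6 and Myh7 with diabetes (x axis) when the rat named on the y axis is left out, in WT (top) and VegfbKO rats (bottom), coloured by the group of that rat, filled where the gene was called and open where it was not, with a dashed line at the value over 20 rats. Myh7 in WT rats moves from 1.67 to 2.62 without WT control rat 3, and Myh6 in WT rats is called in all 20 fits.

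Within groups, rats with more Myh7 had less Myh6. Over the 20 rats, with each group's mean log2 CPM taken out, Pearson's r was -0.64 (permutation within groups, p = 0.00045, Benjamini-Hochberg adjusted over 6 pairs p = 0.0027) and Spearman's rho was -0.81 (permutation p = 0.00022, adjusted p = 0.00132). Without the 2 rats farthest from the median of Myh6, WT diabetic rat 3 and VegfbKO diabetic rat 3, r was -0.70. For the pair of natriuretic peptides r was 0.42 (permutation p = 0.0485, adjusted p = 0.0728) and rho 0.36 (permutation p = 0.134, adjusted p = 0.134), with r at 0.55 without VegfbKO diabetic rat 1 and VegfbKO control rat 2.

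Between a peptide and a myosin, both peptides ran with Myh7 and against Myh6 over the 4 groups pooled, short of the threshold. The values by group were uneven in size and sign, but 5 rats are too few for a correlation of their own, and whether the relation differs between groups was not tested. For Nppa and Myh6, r was -0.39 (permutation p = 0.12, adjusted p = 0.12) and rho -0.49 (permutation p = 0.0351, adjusted p = 0.0702). For Nppa and Myh7, r was 0.42 (permutation p = 0.087, adjusted p = 0.104) and rho 0.40 (permutation p = 0.107, adjusted p = 0.128). Without VegfbKO diabetic rat 1 and VegfbKO control rat 2, the 2 rats farthest from the median of Nppa, these r were -0.63 and 0.78. For Nppb and Myh6, r was -0.53 (permutation p = 0.0319, adjusted p = 0.0728) and rho -0.50 (permutation p = 0.0302, adjusted p = 0.0702), and for Nppb and Myh7 r was 0.47 (permutation p = 0.0404, adjusted p = 0.0728) and rho 0.43 (permutation p = 0.0757, adjusted p = 0.114). Without WT diabetic rats 1 and 3, farthest from the median of Nppb, the r of Nppb was -0.20 with Myh6 and 0.40 with Myh7. When WT diabetic rat 2 and VegfbKO diabetic rat 1, the libraries with a large share of counts on 1 ID, were left out, these 4 pairs and the pair of peptides passed, with adjusted permutation p between 0.00552 and 0.0427.

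The gene most like each of the 4 over all 20 rats was sought among 12767 other genes of at least 1 CPM on average, by Pearson's r of log2 CPM, as a description that holds the differences between groups. ENSRNOG00000020532 followed Myh6 at r = 0.976, with 50.0 ± 3.95 CPM in WT controls, 31.3 ± 4.48 in WT diabetic rats, 49.3 ± 3.34 in VegfbKO controls and 36 ± 4.04 in VegfbKO diabetic rats (SD, n = 5 each). It was called with diabetes in both genotypes, at log2 fold changes of -0.67 and -0.45, a far smaller fall than that of Myh6. ENSRNOG00000002089 followed Myh7 at r = 0.932, at 21.9 ± 3.10, 32.7 ± 3.23, 21.8 ± 3.31 and 30.4 ± 3.09 CPM in the same order of groups (SD, n = 5 each), with called log2 fold changes of 0.58 and 0.48. Nppa and Nppb had no companion as close: r was 0.80 with ENSRNOG00000031167 and 0.832 with ENSRNOG00000024689, and neither of these was called for diabetes.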

How the data were processed

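Rat ventricle RNA was sequenced from paired-end directional libraries. The authors deposited estimated counts per Ensembl gene ID. The submitters' processing notes name kallisto, edgeR, DESeq2 and the build mRatBN7.2 with no versions, and which step made the table is not given in the sources used here. Of 24059 IDs, 3978 had a count of 0 in every library after rounding to whole numbers. Samples were grouped by their labels, and columns were matched to samples by library name.

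Testing used edgeR 4.0.16 (R 4.3.3) with filterByExpr by group, TMM, and a robust quasi-likelihood fit of 4 group means to all 20 libraries. Log2 CPM used a prior count of 2. Exact permutation tests and correlations (100000 permutations within groups) were run in Python 3.11.15 with NumPy 2.4.6 and SciPy 1.17.1. The count test was tested on simulated data. DESeq2 1.42.0, limma 3.58.1, other scalings and filters, a replicate block and leaving out each library were tried as alternatives. All pairs of libraries of a group differed by more than sampling noise.

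The members and lists were chosen with earlier results of these data known. The genes named besides the members were the most alike by correlation. Lists for the natriuretic peptide pathway, sarcomere, fetal programme, thyroid hormone axis and cell type markers were not run, because 0 of the 47357 genes in the RefSeq table at hand (GRCr8) carry an Ensembl ID. ENSRNOG00000065867 and the measures named as such were chosen after values were seen.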

Additional observations from a re-analysis of the deposited data

Results flagged for a closer look

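In 6 of 32 sets of 5 values (the 4 genes, both ratios on the log2 scale, the myosin sum and the total count, in each of 4 groups), 1 rat lay farther from its nearest neighbour than 0.71 of the range of the group, Dixon's limit. For normal values chance gives about 1 in 20, or 1.6 sets. The genes and the myosin sum were taken as CPM without log, and skew of such values can add sets. The number of sets is therefore a description and was not tested against chance. WT control rat 3 was apart in Myh6 (12712 CPM, next 24914) and in Myh7 (14694 CPM, next 3779). WT diabetic rat 3 was apart in Myh6 (13266 CPM, next 4651) and in the log2 Myh7 to Myh6 ratio (-0.61, next 1.83). These 4 sets share 2 rats and 2 genes and are not independent. VegfbKO diabetic rat 1 was apart in Nppa (846 CPM, next 222). WT diabetic rat 1 had a total count of 12965611, apart from the next at 20780650.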

How the results depend on the processing

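Of 332 values under alternatives other than leaving out 1 library, 296 were kept, and of 560 leave-one-out values 522 were. A value was kept if it held its direction and its side of the threshold. Counts of genes called have neither and were judged by how far they moved. A value that rounded to 0 was not counted as kept. These tallies overstate stability. For the 4 genes each of the 20 libraries was left out, also rats of neither group compared, without which a fold change hardly moves. Values far from the threshold, such as those between genotypes, also count as kept where they stayed uncalled in the same direction. Myh6 was called for diabetes in WT rats in every setting tried. For each value below the cause of the change was not tested, beyond fewer rats where rats were left out.

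For diabetes in WT rats, Myh7 was called with DESeq2 (1.67), the likelihood ratio test (1.67), the replicate block (2.19) and voom (2.52), and Nppa with DESeq2 (1.82) and voom (2.34), which called 2819 genes. For diabetes in VegfbKO rats, Myh6 was no longer called with no filter (-1.51, edgeR Benjamini-Hochberg adjusted p = 0.0504) or with the replicate block (-1.54, adjusted p = 0.0635). Over all settings, leaving out 1 library included, adjusted p ranged from 0.00231 to 0.0721 for this call, from 0.000255 to 0.136 for Myh7 and from 0.0238 to 0.22 for Nppa in WT rats, and from 0.00104 to 0.0521 for Myh7 in VegfbKO rats. Genes called between genotypes in diabetic rats, 6 at first, were 67 with DESeq2, 38 with the likelihood ratio test, 28 with voom and 3 in a fit of only the 10 libraries. With voom, Nppb between genotypes in controls was 0.05 and the Myh7 interaction -0.14.

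Without WT diabetic rat 2 and VegfbKO diabetic rat 1, the ratio's interaction was 0.14, Myh7 between genotypes in diabetic rats 0.01, and r was 0.61 for Nppa and Nppb, -0.60 for Nppa and Myh6, 0.55 for Nppa and Myh7, -0.56 for Nppb and Myh6 and 0.48 for Nppb and Myh7.

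WT control rat 3 and WT diabetic rat 3 were left out together after their values were seen; for Myh6, Myh7, their ratio and Nppa each is the rat of its group nearest to the other group, so their removal widens these differences by construction, while for Nppb they are the rats farthest from the other group. The ratio's rise in WT rats was then 5.57 (exact permutation p = 0.0286, the smallest that 4 against 4 can give, adjusted p = 0.0571), its genotype difference 0.11 in controls and -1.38 in diabetic rats, and its interaction -1.49 (exact permutation p = 0.126). For diabetes in WT rats Nppa was 2.53, Myh7 2.77 (both called) and Nppb 0.13. Between genotypes in controls Nppb was 0.14, Myh6 0.00 and Myh7 0.21. In diabetic rats Myh6 was 1.20 (called) with 275 genes called, and the interaction called 14 genes, with Myh7 at -0.48.

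The values showed no clear pairing of the rats by replicate number. Deviations from the group mean correlated with a median r of 0.037 over 30 pairs of the same number (-0.26 to 0.26). Over 120 pairs of other numbers the median r was -0.017 (-0.32 to 0.46). Of 20 libraries, 5 correlated best with a library of their own number. Whether the numbers stand for litters is not stated in the sources used here. With the replicate block, 1785, 1048, 4 and 0 genes were called for diabetes in WT, diabetes in VegfbKO, genotype in diabetic rats and the interaction. The ratio's rises of 4.29 and 4.08 then had adjusted p of 0.25 each (exact permutation by sign flips of 5 pairs, which cannot give a p under 0.0625).

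Leaving out 1 library gave ranges of 1.43 to 2.62 for Myh7 in WT rats, -1.82 to -1.28 for Myh6 and 2.10 to 2.72 for Myh7 in VegfbKO rats. Genes called ranged from 643 to 1244 for diabetes in VegfbKO and from 2 to 181 for genotype in diabetic rats. The ratio ranged from -0.98 to 0.11 for genotype in controls and from -0.93 to 0.24 for the interaction. Between genotypes in controls Nppa ranged from -0.25 to 0.83, Nppb from -0.19 to 0.14, Myh6 from 0.00 to 0.21 and Myh7 from -1.17 to 0.21. Nppa ranged from -1.43 to -0.21 between genotypes in diabetic rats and from -1.74 to -0.25 for the interaction. Myh7 ranged from -0.30 to 0.03 between genotypes in diabetic rats and from -0.33 to 1.05 for the interaction. Groups of 5 rats with 1 or 2 rats apart limit precision, and the effect of depth was not tested.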
